A study of Homo sapiens with 4 samples.

Results

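Expression of the collagen genes was examined in 2 pairs of parental and lapatinib-resistant breast cancer cells. The collagen genes were all genes with a symbol made of COL, a number, the letter A and a number, and were found through the RefSeq accessions of the array probes. Of 44 such genes, 40 had at least 1 probe, with 60 probes in all, out of 16422 genes named by 23680 of the 41000 probes. COL1A1, COL6A6, COL13A1 and COL28A1 had no matched probe and are not analysed here. SkBr3 and BT474 are established HER2-positive breast cancer cell lines. Lapatinib inhibits the tyrosine kinases EGFR and HER2. The 4 samples were parental SkBr3, parental BT474, both labelled as given vehicle, and SkBr3/Lap and BT474/Lap, 1 resistant clone of each line, labelled as given lapatinib and selected in rising doses up to 1 μM, and all 4 were grown in DMEM/F12. Total RNA of each sample was hybridised to 1 Agilent array, so that there are no replicates, and each resistant line stands for 1 clone. The labels number the SkBr3 clone 3 and the BT474 clone 6, whereas the study's text numbers them the other way round.

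The values below are scaled signals. Each is the processed intensity of a probe, divided by the array's own 75th percentile and multiplied by 1457, the geometric mean of the 4 percentiles, so that the ratio of 2 scaled signals of a probe is its fold change. The software's flag for a signal well above background was used as the limit of detection, and a fold change against a signal below it is given as "at least". The unscaled 75th percentile ranged from 1115 to 2074, and 66.6% to 74.0% of the probes were well above background. The array of SkBr3/Lap lay on a separate slide from the other 3, so that slide and resistance cannot be told apart for SkBr3, while both BT474 arrays lay on 1 slide. Of 7 luminal and HER2 markers, ERBB2, GRB7, KRT8, KRT18, KRT19 and EPCAM were well above background on all 4 arrays, and CDH1 was below it on both SkBr3 arrays.

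Collagens are trimers of chains wound into a triple helix, and most are secreted into the extracellular matrix. The fibrillar types form the fibers of connective tissue, type IV forms the sheet of the basement membrane under epithelia, and the fibril-associated types, known as FACIT collagens, sit on the surface of fibers. Other types form beaded filaments (type VI), anchor the basement membrane to the stroma (type VII), span the cell membrane (type XVII) or carry sugar chains in the basement membrane zone (types XV and XVIII). In breast tissue most fibrillar collagen is made by stromal fibroblasts, whereas epithelial cells contribute components of the basement membrane.

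Counted at 2-fold or more, collagen genes were more often higher than lower in both clones than in their parental cells. In BT474/Lap their median log2 difference was near 0, at -0.05, and more of all genes were also counted as higher than as lower. Among the 19 collagen genes with an unscaled signal of at least 100 on at least 1 array, 9 were at least 2-fold higher in SkBr3/Lap than in SkBr3, where 13.4% of the 12136 genes passing this filter were, and 2 were at least 2-fold lower, against 12.9%. In BT474/Lap, 5 of the 19 were at least 2-fold higher than in BT474, against 8.56% of all genes, and 1 was lower, against 5.16%. COL12A1 and COL17A1 were higher in both clones, against 2.46% of all genes, none was lower in both, against 1.21%, and COL4A5 and COL9A3 were at least 2-fold apart in opposite directions, against 2.56%. The median log2 difference was 1.01 over 18 collagen genes in SkBr3/Lap, beside -0.05 over all genes, and -0.05 over 18 in BT474/Lap, beside -0.08. COL3A1, COL4A1, COL14A1, COL17A1 and COL20A1 passed the filter through clone arrays alone, so that these counts and medians are a description. Among the 15 genes that also passed the background limit on each array, 7 were higher and 2 lower in SkBr3/Lap, against 10.6% and 12.7% of all such genes. In BT474/Lap 3 were higher and 1 lower, against 6.32% and 4.55%. COL4A1, COL14A1 and COL17A1 are among these 15 and are counted as higher in SkBr3/Lap, COL17A1 also in BT474/Lap. The values of this set are thus a description too. The median log2 difference of the 15 was 0.65 in SkBr3/Lap, beside -0.08 over all such genes, and -0.26 in BT474/Lap, beside -0.10. With no filter, 9 of all 40 collagen genes were higher and 3 lower in SkBr3/Lap, against 10.5% and 11.2%, the median log2 difference was 0.25 over 22 genes, beside -0.06 over all genes, and 9 were higher and 2 lower in BT474/Lap, against 7.03% and 4.83%, with a median of 0.10 over 29 genes, so that the sign of this median depends on the filter. The same 2 genes were then higher in both clones, against 1.86%, and the same 2 in opposite directions, against 1.99%. In RNA of whole cultures, fewer cells of a kind and less RNA per cell cannot be told apart.

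**Figure D1:**
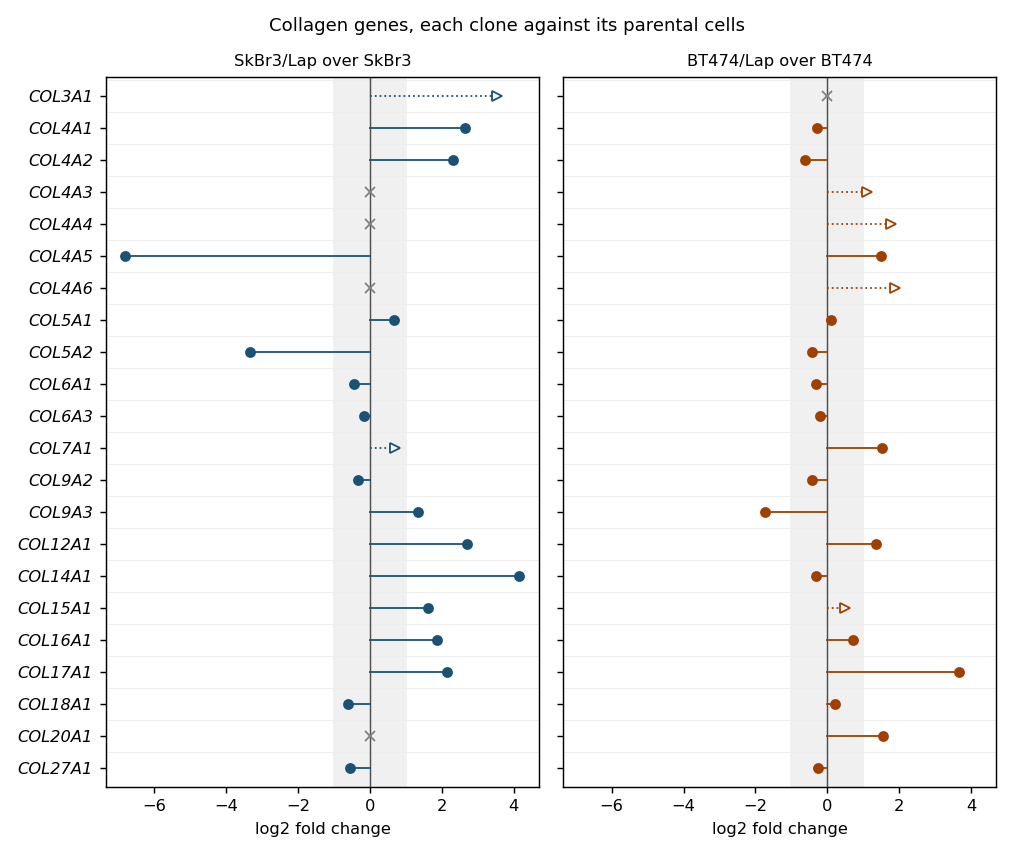
Log2 fold change of each clone over its parental cells (horizontal axis) for the 19 collagen genes passing the filter and for COL4A3, COL4A4 and COL4A6. Filled circles are measured values, open triangles with dotted lines are limits ("at least"), crosses mark genes with no value given, and the gray band spans changes under 2-fold. COL14A1 lies farthest to the right in SkBr3/Lap at 4.16 and COL17A1 in BT474/Lap at 3.67, and COL4A5 and COL9A3 lie on opposite sides in the 2 panels.

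The 6 type IV chains lie in the genome as 3 pairs of genes that start close together and run in opposite directions. The trimers of the basement membrane are built from chains of these pairs. COL4A1 and COL4A2 encode the chains of the type IV trimer found in nearly all basement membranes, COL4A3 and COL4A4 join COL4A5 in a trimer of kidney and lung, and COL4A6 joins COL4A5 in a trimer of epithelial and smooth muscle basement membranes. To show how close the pairs lie, 1 promoter window per pair is printed from RefSeq (GRCh38.p14), from 250 bases before to 50 bases after the start of the gene on the plus strand, 5′ to 3′. Capitals mark the bases that also lie in the window of its partner, whose gene runs on the minus strand. The windows are chr13:110307034-110307333 for COL4A2, which shares 226 bases with COL4A1, chr2:227164374-227164673 for COL4A3, which shares 82 bases with COL4A4, and chrX:108439588-108439887 for COL4A5, which shares 121 bases with COL4A6.

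COL4A2: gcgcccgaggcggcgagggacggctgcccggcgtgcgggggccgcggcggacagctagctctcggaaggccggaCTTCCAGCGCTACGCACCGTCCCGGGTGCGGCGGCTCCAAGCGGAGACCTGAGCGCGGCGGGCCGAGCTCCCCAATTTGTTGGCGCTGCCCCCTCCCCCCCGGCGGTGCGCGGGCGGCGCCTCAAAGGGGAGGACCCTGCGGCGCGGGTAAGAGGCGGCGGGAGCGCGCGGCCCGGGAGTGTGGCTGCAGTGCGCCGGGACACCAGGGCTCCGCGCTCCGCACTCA

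COL4A3: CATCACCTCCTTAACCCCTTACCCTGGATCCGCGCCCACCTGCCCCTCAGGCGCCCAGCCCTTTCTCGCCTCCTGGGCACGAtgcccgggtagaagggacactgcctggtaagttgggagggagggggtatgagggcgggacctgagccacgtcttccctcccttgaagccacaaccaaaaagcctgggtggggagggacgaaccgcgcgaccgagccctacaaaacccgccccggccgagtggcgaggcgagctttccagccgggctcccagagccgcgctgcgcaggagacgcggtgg

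COL4A5: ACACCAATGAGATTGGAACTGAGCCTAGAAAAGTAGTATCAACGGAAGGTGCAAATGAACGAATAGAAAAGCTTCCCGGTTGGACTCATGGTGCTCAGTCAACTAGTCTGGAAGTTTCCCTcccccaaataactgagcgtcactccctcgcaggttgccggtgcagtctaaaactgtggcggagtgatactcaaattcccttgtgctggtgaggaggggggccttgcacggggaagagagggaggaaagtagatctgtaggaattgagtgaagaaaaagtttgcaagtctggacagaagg

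The following 3 short motifs were looked for on both strands. The CCAAT box (CCAAT) occurred in 34.6% of all 35116 RefSeq windows of this length, the GC box (GGGCGG) in 45% and TATAAA in 11.5%, none of which contains another. The window of COL4A2 held 1 CCAAT and 1 GGGCGG, both in the bases shared with COL4A1. The window of COL4A5 held 2 CCAAT, both in the bases shared with COL4A6, and that of COL4A3 held 2 GGGCGG outside the shared bases. TATAAA was in none of the 3 windows. Of the 44 windows of the 32 collagen genes with an entry, 14 held CCAAT, 24 GGGCGG and 8 TATAAA.

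COL4A1 and COL4A2 were both higher in SkBr3/Lap and not 2-fold apart in BT474/Lap. The scaled signal of COL4A2 was 1959.8 (SkBr3), 9605 (SkBr3/Lap), 709.8 (BT474) and 465 (BT474/Lap), all 4 well above background. This is 4.90-fold higher in SkBr3/Lap, at log2 2.29 ± 0.20, and 1.53-fold lower in BT474/Lap, -0.61 ± 0.20. Here and below, ± is the error that the array software gives for each signal, combined over both arrays, and it leaves out the spread between cultures. COL4A1 was at 123 (SkBr3), 761 (SkBr3/Lap), 74.6 (BT474) and 60.6 (BT474/Lap). The log2 fold change was 2.63 ± 0.21 in SkBr3/Lap and -0.30 ± 0.24 in BT474/Lap. A second, dimmer COL4A1 probe was detected in SkBr3/Lap alone, at 39.9, at least 1.91-fold higher than in SkBr3. The array of SkBr3/Lap thus had the highest signal of both genes on all of their probes.

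COL4A5 went in opposite directions in the clones. Its main probe read 1489 (SkBr3), 13.3 (SkBr3/Lap), 407 (BT474) and 1149 (BT474/Lap), and all 4 signals were well above background. The log2 fold change was -6.81 ± 0.29 in SkBr3/Lap, 112-fold lower, and 1.50 ± 0.20 in BT474/Lap, 2.83-fold higher. The SkBr3/Lap signal lay close to the lowest signal flagged well above background on that array, 9.34. Its probes differed in size and, in BT474/Lap, in direction. A dimmer COL4A5 probe, matched to another of its transcripts, read 92.6 (SkBr3), 43.5 (SkBr3/Lap), 55.2 (BT474) and 40.8 (BT474/Lap), or log2 -1.09 and -0.43. The last COL4A5 probe was below the background limit on all 4 arrays. The mean over the COL4A5 probes, which includes this undetected one, kept the SkBr3/Lap difference at -2.75 and gave 0.64 in BT474/Lap, under 2-fold.

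COL4A6, COL4A3 and COL4A4 were detected in BT474/Lap alone, all below the filter of 100. COL4A6 read 23.8 (SkBr3), 2.19 (SkBr3/Lap), 5.18 (BT474) and 73.4 (BT474/Lap), at least 3.66-fold higher in BT474/Lap than in BT474. COL4A4 read 67.9 there and COL4A3 43.5, at least 3.38-fold and at least 2.17-fold higher, and the other 3 arrays were below the background limit for both. The second COL4A3 probe was below that limit on all 4 arrays. All 4 of the remaining chains, COL4A3 to COL4A6, thus had their BT474/Lap signal above that of BT474 on the probe with the highest mean, and COL4A1 and COL4A2 had it below.

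**Figure D2:**
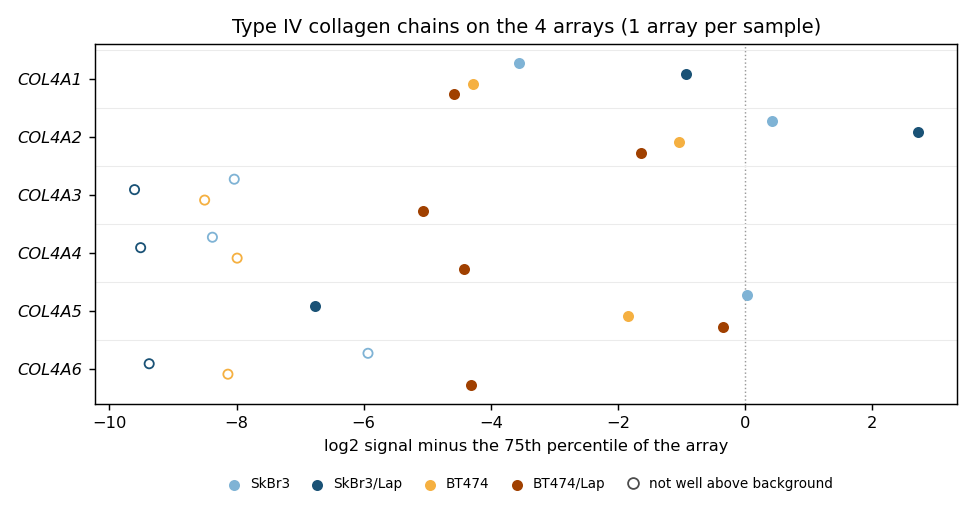
Log2 signal minus the 75th percentile of the array (horizontal axis) for the 6 type IV chains, 1 point per array, with open circles for signals not well above background. SkBr3/Lap has the rightmost point for COL4A1 and COL4A2 and lies far left of SkBr3 for COL4A5, and BT474/Lap has the sole filled point for COL4A3, COL4A4 and COL4A6.

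Of 10 FACIT collagens measured, 6 passed the filter, of which 4 were at least 2-fold higher in SkBr3/Lap, and 2 were higher and 1 lower in BT474/Lap, against the 13.4%, 8.56% and 5.16% of all genes given above. Of these, COL14A1 passed through SkBr3/Lap alone and COL20A1 through BT474/Lap alone, where they are counted. COL12A1, the chain of type XII collagen that binds type I fibers, was higher in both clones. Its scaled signal was 2544 (SkBr3), 16478 (SkBr3/Lap), 9596 (BT474) and 24337 (BT474/Lap). The log2 fold change was 2.70 ± 0.20 in SkBr3/Lap and 1.34 ± 0.20 in BT474/Lap, 6.48-fold and 2.54-fold higher. Parental BT474 was itself 3.77-fold above SkBr3. The second COL12A1 probe gave the same directions, with 306 (SkBr3), 832 (SkBr3/Lap), 4106 (BT474) and 8855 (BT474/Lap), or log2 1.44 and 1.11. On both COL12A1 probes each clone was above its parental line, and BT474 was above SkBr3.

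COL14A1, the chain of type XIV collagen found along fibrils of skin and tendon, was higher in SkBr3/Lap alone. Its main probe read 60.8 (SkBr3), 1084 (SkBr3/Lap), 76.9 (BT474) and 61.4 (BT474/Lap), which is 17.8-fold higher in SkBr3/Lap, at log2 4.16 ± 0.24, and log2 -0.33 ± 0.24 in BT474/Lap. Both other COL14A1 probes were below the background limit in SkBr3 and read 1303 and 1408 in SkBr3/Lap, at least 62.3-fold and at least 67.3-fold higher. COL16A1, another FACIT chain, read 2524 (SkBr3), 9221 (SkBr3/Lap), 1499 (BT474) and 2459 (BT474/Lap). It was log2 1.87 ± 0.20 in SkBr3/Lap and 0.71 ± 0.20 in BT474/Lap, so that both clones were above their parental cells and the second was under 2-fold. COL20A1 was detected in the BT474 pair alone, at 36.4 in BT474 and 107 in BT474/Lap, that is log2 1.55 ± 0.28. With the normexp background correction it was 0.50, under 2-fold.

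Type IX collagen, which decorates the type II fibers of cartilage, is built from the chains of COL9A1, COL9A2 and COL9A3. Its chains went different ways in SkBr3/Lap and were all lower in BT474/Lap, COL9A3 alone by 2-fold or more. COL9A3 read 1018 (SkBr3), 2539.9 (SkBr3/Lap), 856 (BT474) and 258 (BT474/Lap). It was 2.50-fold higher in SkBr3/Lap, at log2 1.32 ± 0.20, and 3.32-fold lower in BT474/Lap (-1.73 ± 0.21), while the parental lines were 1.19-fold apart. COL9A2 read 1173 (SkBr3), 937 (SkBr3/Lap), 1319 (BT474) and 983 (BT474/Lap), under 2-fold apart in both clones, with log2 -0.32 ± 0.20 and -0.43 ± 0.20. COL9A1 was under the filter, between 41.1 and 65.4 on the 4 arrays, with log2 -0.43 in SkBr3/Lap and -0.56 in BT474/Lap. COL19A1 and COL22A1 were below the background limit on all 4, and COL21A1 was above it in SkBr3/Lap alone, at 18.9, with no fold given as the limit was under 1.

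Of 10 fibrillar collagens measured, 4 passed the filter, with 1 higher and 1 lower in SkBr3/Lap against 13.4% and 12.9% of all genes, and none 2-fold apart in BT474/Lap. The gene counted as higher, COL3A1, passed through SkBr3/Lap alone. COL3A1, the chain of type III collagen of skin, vessels and reticular fibers, was detected in SkBr3/Lap alone. Its main probe read 5.36 (SkBr3), 244 (SkBr3/Lap), 5.12 (BT474) and 3.31 (BT474/Lap), at least 11.7-fold higher in SkBr3/Lap (log2 at least 3.54). Both other COL3A1 probes were also well above background there alone, but dimly, at 34.9 and 21.4, which set their limits at 1.67-fold and 1.03-fold. COL5A2, the neighbor of COL3A1 in the genome and a chain of type V collagen, went the other way. It read 934 (SkBr3), 93.0 (SkBr3/Lap), 197 (BT474) and 147 (BT474/Lap), 10.04-fold lower in SkBr3/Lap, at log2 -3.33 ± 0.21, and at -0.42 ± 0.21 in BT474/Lap. A second COL5A2 probe gave log2 -2.97 and -0.43, and the third was below the background limit on all 4 arrays.

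COL5A1, whose chain joins that of COL5A2 in type V trimers that help start collagen fibers, was not lower in SkBr3/Lap. It read 577 (SkBr3), 908 (SkBr3/Lap), 23.9 (BT474) and 25.7 (BT474/Lap), or log2 0.65 ± 0.20 and 0.10 ± 0.37. A second COL5A1 probe was at 84.6 in SkBr3 and 178 in SkBr3/Lap, log2 1.07, and below the background limit in the BT474 pair. COL27A1, a fibrillar chain of cartilage, read between 230.0 and 341 on the 4 arrays, with log2 -0.57 and -0.26. COL1A2, which encodes a chain of type I collagen and is a main product of fibroblasts, was below the background limit on all 4 arrays for both of its probes, as was COL5A3. COL11A2, under the filter, read 23.8 in BT474 and 58.9 in BT474/Lap, log2 1.31. COL24A1 read 32.9 in SkBr3 and 12.9 in SkBr3/Lap, log2 -1.35. COL2A1 was detected in the BT474 pair alone, at 50.7 and 80.9, and COL11A1 in SkBr3/Lap alone, at 11.2, with no fold given.

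**Figure D3:**
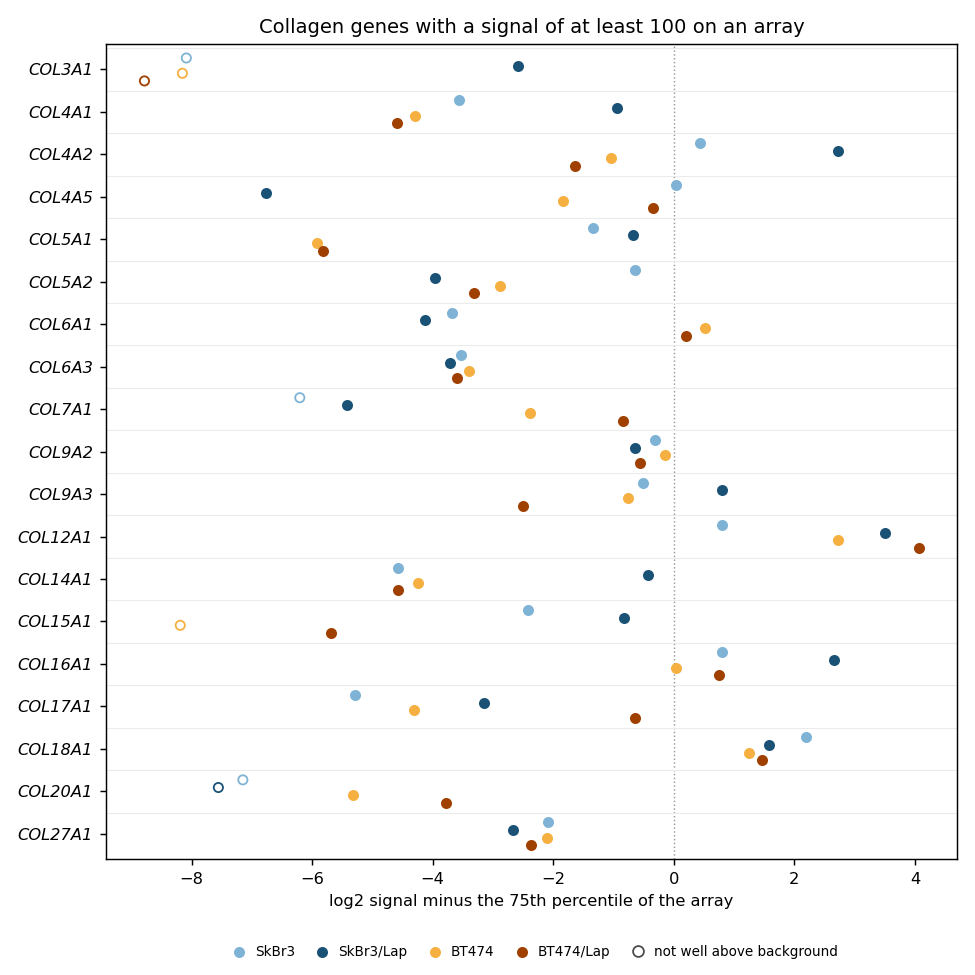
Log2 signal minus the 75th percentile of the array (horizontal axis) for the 19 collagen genes passing the filter, 1 point per array, with open circles for signals not well above background. Levels may be compared between arrays for 1 gene and not between genes. COL3A1 has a single filled point, in SkBr3/Lap, and for COL12A1 and COL17A1 the dark point of each line lies to the right of the light one.

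COL17A1, a transmembrane collagen of the hemidesmosomes by which epithelial cells hold to the basement membrane, was higher in both clones. It read 37.2 (SkBr3), 164 (SkBr3/Lap), 73.1 (BT474) and 932 (BT474/Lap), all 4 well above background. The log2 fold change was 2.14 ± 0.27 in SkBr3/Lap and 3.67 ± 0.22 in BT474/Lap, 4.40-fold and 12.7-fold higher, and the signals of the parental lines were below those of both clones. With the normexp background correction the log2 fold changes were smaller, 1.18 and 2.93, both still at least 2-fold. The second COL17A1 probe was above the background limit in the clones alone, at 19.5 and 100.2, at least 4.99-fold higher in BT474/Lap and with no fold given in SkBr3/Lap. COL7A1, the chain of the anchoring fibrils that fasten the epithelial basement membrane to the stroma, read 19.7 (SkBr3), 34.1 (SkBr3/Lap), 279.9 (BT474) and 808 (BT474/Lap). It was 2.89-fold higher in BT474/Lap, at log2 1.53 ± 0.21, and at least 1.63-fold higher in SkBr3/Lap, where the SkBr3 signal was below the background limit. The other measured transmembrane chains were under the filter. COL23A1 read at most 59.6, in BT474/Lap, and COL25A1 was below the background limit on all 4 arrays.

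Among the 2 collagens that carry sugar chains near basement membranes, COL15A1 was higher in SkBr3/Lap. It read 271 (SkBr3), 821 (SkBr3/Lap), 4.995 (BT474) and 28.2 (BT474/Lap), or log2 1.60 ± 0.21 in SkBr3/Lap and at least 0.49 in BT474/Lap, since the BT474 signal was below the background limit. The second COL15A1 probe gave log2 1.72 in SkBr3/Lap and was below that limit in the BT474 pair. COL18A1, the source of the fragment endostatin, was under 2-fold apart on its main probe, which read 6696 (SkBr3), 4371 (SkBr3/Lap), 3451 (BT474) and 4027 (BT474/Lap), or log2 -0.62 and 0.22. Its second probe was lower in both clones, at log2 -1.37 and -0.56, so that the probes differed in direction in BT474/Lap.

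The chains of type VI collagen, whose beaded filaments lie around many cells, were under 2-fold apart in both clones where they passed the filter. COL6A1 read 114 (SkBr3), 83.4 (SkBr3/Lap), 2095 (BT474) and 1669.8 (BT474/Lap), log2 -0.45 ± 0.21 and -0.33 ± 0.20, and the parental lines differed 18.4-fold. The second COL6A1 probe was below the background limit on all 4 arrays, and with the mean over probes COL6A1 was counted as at least 2-fold lower in SkBr3/Lap. COL6A3 stayed between 111 and 138 on the 4 arrays, log2 -0.17 and -0.20. COL6A2 was detected in the BT474 pair alone, at 25.6 and 20.8. COL6A5, under the filter, read 56.0 in BT474 and was below the background limit in BT474/Lap, at least 4.42-fold lower. Of the short-chain network collagens none passed the filter. COL10A1 read between 35.6 and 109, log2 -0.37 and -0.49, COL8A2 was detected in SkBr3/Lap alone, at 14.6, and COL8A1 was below the background limit on all 4 arrays. COL26A1, the remaining gene, read between 62.2 and 82.7. Of all 40 genes, 18 passed the background limit on every array and 6 on none. Nearest to the 2-fold threshold in SkBr3/Lap were COL9A3 inside at 1.32 and COL7A1 outside at 0.71, and in BT474/Lap COL12A1 inside at 1.34 and COL16A1 outside at 0.71. Nearest to the signal filter were COL20A1 inside at an unscaled 123 and COL26A1 outside at 93.5.

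Parental BT474 was at least 2-fold above SkBr3 for 3 of the 19 genes, against 19% of all genes, and below it for 5, against 18.6%, shares near those of all genes. Those higher in BT474 were COL6A1, 18.4-fold, COL12A1, 3.77-fold, and COL7A1, at least 13.4-fold. Those lower were COL5A1, 24.1-fold, COL15A1, at least 13.5-fold, COL5A2, 4.75-fold, COL4A5, 3.66-fold, and COL4A2, 2.76-fold. The BT474 signal of COL5A1, 23.9, lay close to the lowest signal flagged well above background on that array, 20.1. The second COL5A1 probe was at least 4.21-fold lower. The comparison of each clone with its own line leaves these differences out.

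Of the 40 collagen genes, 16 had more than 1 probe. Over the 6 collagen genes with several probes measured in a clone, the median range of the log2 fold change between probes of 1 gene was 0.59 in SkBr3/Lap, beside 0.29 over 3691 genes, and 0.25 in BT474/Lap, beside 0.28 over 3766 genes. The widest was that of COL4A5, 5.71 and 1.93.

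**Figure D4:**
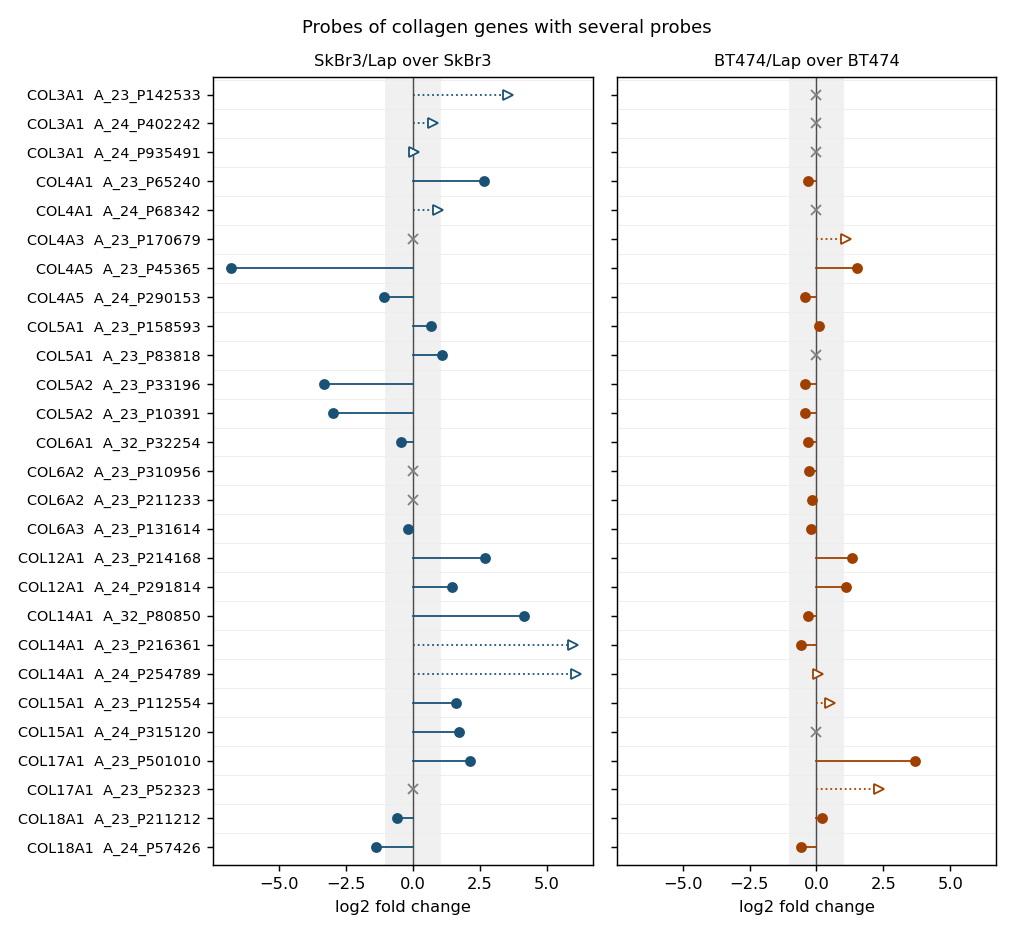
Log2 fold change of each clone over its parental cells (horizontal axis) for each probe of the collagen genes with several probes. Filled circles are measured values, open triangles limits, and crosses probes with no value given, and the gray band spans changes under 2-fold. The probes of COL12A1, COL14A1 and COL15A1 point the same way in SkBr3/Lap, whereas those of COL4A5 differ by 5.71 there and in direction in BT474/Lap.

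With the 2 lines taken as replicates, limma tested resistance across both, with the cell line as a block and 1 residual degree of freedom. No collagen gene, and none of the 12136 genes, had an adjusted p below 0.05. At an unadjusted p below 0.05 there were 3 collagen genes, beside 487 of all genes (4.01%). In limma, COL17A1 had a mean log2 fold change of 2.90 (SE 0.57), COL15A1 2.05 (SE 0.45) and COL12A1 2.02 (SE 0.53), each with an adjusted p of 0.998 and a higher signal in 2 of 2 clones. The signals entered limma as measured, those below the background limit included, as for COL15A1 in BT474. COL17A1 passed the filter through the clone arrays alone, where it is high, so that its place among the genes tested depends on the difference tested.

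Collagen chains are hydroxylated, glycosylated and folded in the endoplasmic reticulum. Of 19 measured genes of these steps, 16 passed the filter. In SkBr3/Lap 2 were at least 2-fold higher and 1 lower, against 13.4% and 12.9% of all genes, and in BT474/Lap 1 was higher and 2 lower, against 8.56% and 5.16%. P4HA1, a catalytic subunit of prolyl 4-hydroxylase, was lower in both clones. It read 2802 (SkBr3), 1021 (SkBr3/Lap), 533 (BT474) and 157 (BT474/Lap), log2 -1.46 and -1.77. P3H2, a prolyl 3-hydroxylase that acts on type IV collagen, was 61.7-fold higher in SkBr3/Lap, at 609.7 in SkBr3 and 37619 in SkBr3/Lap, and log2 -0.81 in BT474/Lap. CRTAP, a partner of prolyl 3-hydroxylation, was at log2 1.05 in SkBr3/Lap. Of the lysyl hydroxylases, PLOD2 was at log2 1.01 and PLOD3 at -1.12 in BT474/Lap. The collagen chaperone SERPINH1 was at 0.11 and -0.69. The median log2 difference of the list was -0.05 over 16 genes in SkBr3/Lap and -0.32 over 15 in BT474/Lap, beside the -0.05 and -0.08 over all genes given above.

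After secretion, the ends of procollagen are trimmed and the fibers cross-linked. Of 13 such genes, 10 passed the filter, of which 5 were at least 2-fold higher and 1 lower in SkBr3/Lap, against 13.4% and 12.9% of all genes, and 4 were higher and none lower in BT474/Lap, against 8.56% and 5.16%. BMP1, ADAMTS2, ADAMTS3 and PCOLCE2 passed the filter through SkBr3/Lap alone and TLL2 through BT474/Lap alone, so that these counts and the medians are a description. The median log2 difference was 1.33 over 8 genes and 0.37 over 9. LOXL2, a lysyl oxidase-like enzyme of cross-linking, was higher in both clones, with 754 (SkBr3), 1790.0 (SkBr3/Lap), 36.6 (BT474) and 104 (BT474/Lap), log2 1.25 and 1.51. LOX itself was below the background limit on all 4 arrays. BMP1, the protease that removes the carboxyl end of fibrillar procollagens, read 59.3 (SkBr3), 299.9 (SkBr3/Lap), 86.9 (BT474) and 86.6 (BT474/Lap), log2 2.34 and -0.0042. PCOLCE, which enhances that protease, went in opposite directions, with 409 (SkBr3), 56.2 (SkBr3/Lap), 31.7 (BT474) and 431 (BT474/Lap), log2 -2.86 and 3.77. TLL2, of the BMP1 family, was at log2 3.70 in BT474/Lap and below the background limit in the SkBr3 pair. The others higher were PCOLCE2 and ADAMTS3, at least 4.66-fold and at least 3.78-fold, and LOXL3 at log2 1.41 in SkBr3/Lap, and LOXL4 at log2 1.75 in BT474/Lap.

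Of 10 collagen receptor genes, 4 passed the filter, ITGA1 through SkBr3/Lap alone. ITGA1, the integrin chain that binds type IV collagen, read 73.9 in SkBr3 and 756 in SkBr3/Lap, log2 3.35, and was below the background limit in the BT474 pair. DDR1, the discoidin-domain receptor kinase of epithelia, was at log2 0.07 and 0.23, ITGA2 at 0.04 and -0.19, and ITGB1 at 0.23 and -0.03. DDR2 was below the background limit on all 4 arrays. The median of the list was 0.15 over 4 genes in SkBr3/Lap and -0.03 over 3 in BT474/Lap. Of 9 genes for other proteins of collagen fibers, 4 passed the filter, SPARC through SkBr3/Lap alone and FMOD through parental BT474 alone. SPARC, a secreted protein that binds collagen, read 13.0 (SkBr3), 4822 (SkBr3/Lap), 13.2 (BT474) and 24.3 (BT474/Lap), at least 231-fold higher in SkBr3/Lap. FMOD, the fibril-binding proteoglycan fibromodulin, read 41.2 (SkBr3), 6.73 (SkBr3/Lap), 11659.5 (BT474) and 21.5 (BT474/Lap). It was 544-fold lower in BT474/Lap and at least 4.41-fold lower in SkBr3/Lap. The BT474/Lap signal of FMOD lay close to the lowest signal flagged well above background on that array, 12.7. The median of this list was -0.05 over 4 genes and 0.02 over 4.

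**Figure D5:**
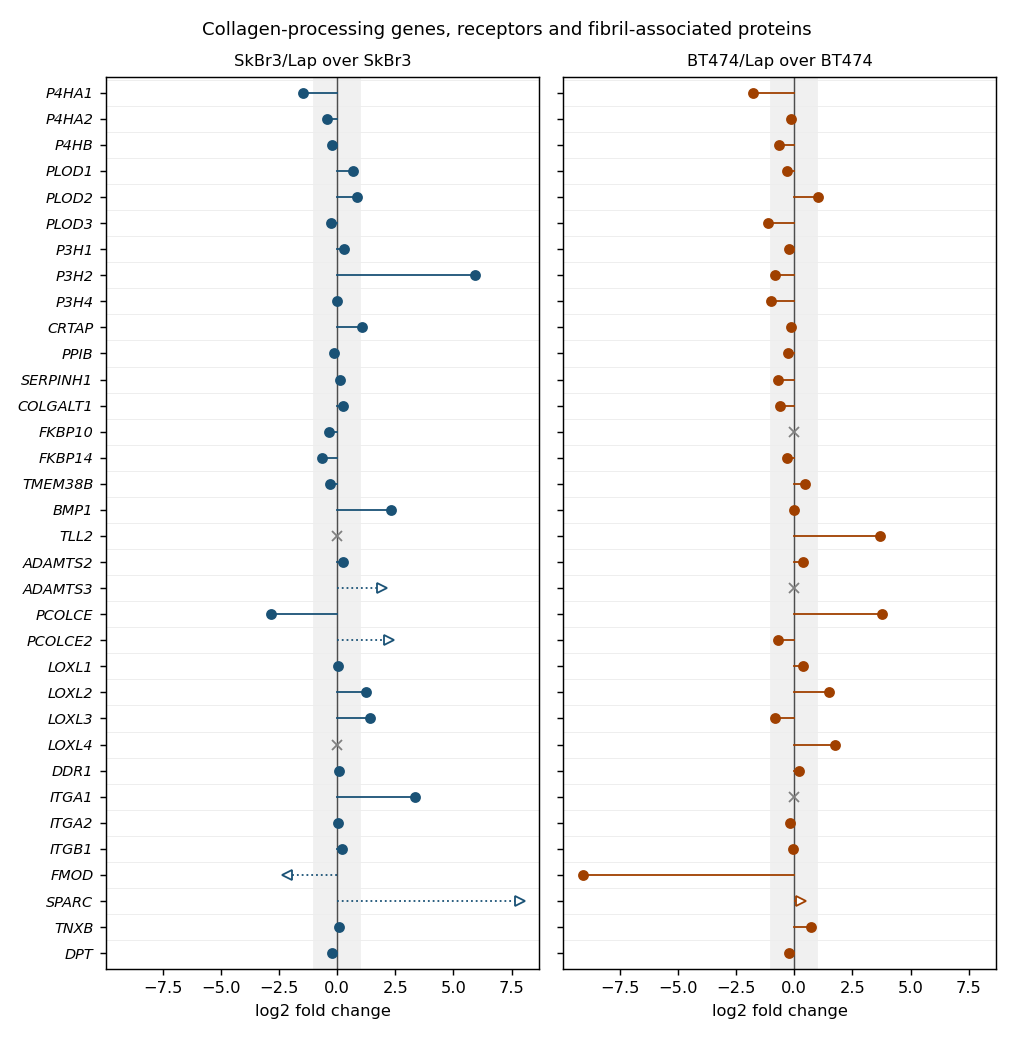
Log2 fold change of each clone over its parental cells (horizontal axis) for the genes of collagen hydroxylation and folding (top, P4HA1 to TMEM38B), trimming and cross-linking (BMP1 to LOXL4), receptors (DDR1 to ITGB1) and fibril-associated proteins (FMOD to DPT) that passed the filter. Filled circles are measured values, open triangles limits and crosses genes with no value given. P3H2 stands at 5.95 and SPARC at a limit of 7.85 in SkBr3/Lap, and FMOD at -9.09 in BT474/Lap.

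Markers of cells that make collagen in tissue were set beside these values. Of 7 fibroblast markers, 2 passed the filter, and PDGFRA, DCN and LUM were below the background limit on all 4 arrays, as was COL1A2. PDGFRB and FAP were detected in SkBr3/Lap alone, at 45.5 and 24.8, and THY1 was at log2 -0.52 and -0.12. FBN1 read 339 (SkBr3), 48.1 (SkBr3/Lap), 67.6 (BT474) and 317 (BT474/Lap), log2 -2.82 and 2.23. The summed scaled signal of the 7 was 2530.0 (SkBr3), 1639 (SkBr3/Lap), 1698 (BT474) and 1816 (BT474/Lap), and most of it came from THY1. The part of the fibroblast markers in the collagen values was not tested. Of 6 endothelial markers, 3 passed, PECAM1 and CDH5 through SkBr3/Lap alone, and KDR was below the background limit on all 4 arrays. In SkBr3/Lap 2 of the 3 were at least 2-fold higher and none lower, against 13.4% and 12.9% of all genes. In BT474/Lap 1 was higher and 1 lower, against 8.56% and 5.16%. PECAM1 was higher in both clones, at least 5.38-fold and at least 2.38-fold, against 2.46% of all genes. CDH5 was at log2 3.08 in SkBr3/Lap, and VWF at 0.53 there and -1.12 in BT474/Lap. Under the filter, CLDN5 was at log2 -0.73 in SkBr3/Lap, and TEK was detected there alone, at 17.8, with no fold given. The summed signal of the 6 was 281, 1015, 1166 and 603 in the same order. Of 5 leukocyte markers, 4 passed the filter, with 1 at least 2-fold higher and 1 lower in SkBr3/Lap, against 13.4% and 12.9% of all genes. None was 2-fold apart in BT474/Lap. PTPRC was below the background limit on all 4 arrays. CD3E, which passed through SkBr3/Lap alone, was at log2 1.04 and 0.20, CD68 at 0.10 and -0.47, and CD14 at 0.67 and -0.45. The part of the endothelial markers in the collagen values of SkBr3/Lap was not tested. The summed scaled signal of the 7 luminal and HER2 markers was lower in both clones, at 1.19e+06, 710868, 1.11e+06 and 745152 in the same order. ERBB2 was at log2 -1.90 and -0.65 and GRB7 at -1.19 and -0.19. Before scaling, KRT8, KRT18, KRT19 and EPCAM were higher in SkBr3/Lap than in SkBr3 and ERBB2 and GRB7 lower, so that this sum depends on the scaling.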

How the data were processed

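Agilent one-colour arrays of 4 samples, 1 per group, were used. The authors deposited the processed intensity of each spot, background-subtracted by Feature Extraction (version 10.1.1.1 per the file headers; the methods name an earlier version and LOWESS normalization), and a table of log2 values per probe with centred rows. Log2 intensities were averaged over the spots of a probe and each array's 75th percentile was subtracted. Probes were named through the RefSeq annotation of GRCh38.p14, for names and neighbors only. The probe with the highest mean signal represented a gene, and genes needed a signal of at least 100 on 1 array. A signal not flagged well above background (at least 50% of spots) was replaced by the array's lowest flagged signal where lower, giving a limit. No fold is given where both signals were below it or the limit was under 1. Changes of at least 2-fold were counted. Without replicates no test per clone was possible, and the number of arrays limits the precision. limma 3.58.1 in R 4.3.3, with Benjamini-Hochberg adjustment, tested both lines together. Python 3.11.15, numpy 2.4.6 and pandas 2.3.3 did the rest, and scripts were tested on simulated data. Described in full are genes at least 2-fold apart in a clone and their partner chains. The members and lists were chosen with earlier results of these data known, and 1 listed marker is not reported here. Alternatives were median scaling, the percentile over detected probes, quantile normalization, normexp (offset 50) with quantile normalization, a pseudocount of 16, the deposited log2 values, no filter or a filter on all arrays, outlier spots left out, the mean over probes, no limits, 3-fold, and limma without a block or with slide as the block.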

Additional observations from a re-analysis of the deposited data

Results flagged for a closer look

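The following 4 genes were at least 2-fold apart from the parental cells in opposite directions in the clones, and with 1 array per sample these differences between the lines were not tested. COL4A5 was at log2 -6.81 in the SkBr3 clone and 1.50 in the BT474 clone, and its second measured probe was lower in both. COL9A3 was at 1.32 and -1.73. Among genes outside the collagens, PCOLCE was at -2.86 and 3.77, and FBN1 at -2.82 and 2.23.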

How the results depend on the processing

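The labels number every sample 1, so that replicate numbers pair no samples beyond the 2 cell lines. The limma fit with the cell line as the block pairs each clone with its parent and had 487 genes, 3 of them collagens, at an unadjusted p below 0.05. Of 98 recomputed counts, medians and tests over the collagen genes, 88 stayed within their margin and 10 moved. Of 257 gene values 31 moved, and 0 changes of at least 2-fold turned direction. With no filter, 9 collagen genes were higher and 2 lower in BT474/Lap and the SkBr3/Lap median was 0.25. With genes well above background on all arrays, 3 were higher in BT474/Lap and that median was 0.65. With the mean over probes, 1 gene went in opposite directions and the median was 1.32. At 3-fold, 1 gene was higher in BT474/Lap, 1 went the same way in both clones and 0 in opposite directions. COL3A1 and COL5A2 in SkBr3/Lap and COL4A5 in BT474/Lap were no longer called with the mean over probes, the first 2 because the mean left them under the filter, and COL20A1 in BT474/Lap with normexp. COL6A1 was called lower in SkBr3/Lap with the mean over probes. COL15A1 was called higher in BT474/Lap without limits and in the deposited table. Median scaling moved the median of all genes from -0.06 to 0.10 (SkBr3/Lap) and from -0.09 to -0.29 (BT474/Lap), and the genes called from 1632 higher and 1571 lower to 1953 and 1278, and from 1039 and 626 to 834 and 996. It moved no collagen call. limma called 0 genes with the cell line as the block and with no replicate block (169 at an unadjusted p below 0.05, 0 of them collagens). It also called 0 after quantile normalization (459 and 3) and with no filter (772 and 4). With the slide as the block, SkBr3/Lap was alone on its slide and was fitted exactly. That fit thus compared BT474/Lap with the parental arrays and cannot test resistance across both lines. Signals near background limit COL3A1, COL4A3, COL4A4, COL4A6 and the SkBr3/Lap value of COL4A5.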
